A study of Mus musculus with 2 samples.

Results

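Expression of 8 genes of the integrated stress response, Atf4, Ddit3, Atf3, Trib3, Nupr1, Asns, Chac1 and Gdf15, was examined in single cells of ileal enteroids, in a control library and a library labelled as deleted for Taf4. The genes were chosen by name as regulators and effectors of this response, with earlier results of these data known. All 8 were among the 16665 genes listed in the control or the Taf4IEC library. Gdf15 was higher in the library labelled Taf4IEC, at 1.92 against 0.850 of 10000 transcript molecules (a fold of 2.26), whereas 7 of the 8 genes, all but Gdf15, had ratios under 1, as had 34.7% of the 10002 genes with at least 200 UMIs. The higher Gdf15 level was most marked in stem-like cells and in unnamed clusters. In Paneth/goblet-like cells its log2 ratio depended on the clustering, at 0.31 and, with both libraries clustered together, 1.401. The lower level of Nupr1 was most marked in enterocyte-like cells, at 0.298 against 6.24 of 10000, and in unnamed clusters, at 2.90 against 27.2.

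In the integrated stress response, kinases that sense unfolded protein, amino acid shortage, haem shortage or viral RNA phosphorylate the translation factor eIF2. General protein synthesis then slows, while the mRNA of the transcription factor ATF4 is translated better. ATF4 and its partners switch on genes of amino acid synthesis, amino acid uptake and tRNA charging, and, when stress lasts, CHOP (Ddit3) and genes tied to cell death. In the intestine the response accompanies the heavy protein secretion of Paneth and goblet cells and the renewal of the epithelium. GDF15, a secreted hormone of the TGF-β superfamily that acts on appetite through the brain stem, is switched on by this response and also by p53.

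The control library came from enteroids that its label gives as WT and treated with ethanol, whereas the methods of the study name Taf4lox/lox enteroids treated with 4-OHT. The Taf4IEC library came from Taf4lox/lox::VilCreERT2 enteroids, labelled KO and treated with 4-OHT (4-hydroxytamoxifen, 1 µM for 3 days, from day 5 to day 8 of culture), in which the villin promoter drives a tamoxifen-activated Cre in the intestinal epithelium. Both were grown from ileal crypts of 4-month-old C57Bl6/129sv mice, whose number is not given in the sources used here. By their labels the libraries differ in genotype and in 4-OHT at once. Taf4 deletion, active Cre and 4-OHT thus cannot be told apart in any ratio below. Live cells were sorted and captured on the 10X platform, which reads transcripts near their 3′ end, and each transcript molecule is counted by its unique molecular identifier (UMI).

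There was 1 library per condition. No test between conditions was therefore made, and the 95% intervals in brackets are exact Poisson intervals of levels, exact binomial intervals of ratios and Clopper-Pearson intervals of cell shares. They hold counting error alone and leave out the spread between cultures or mice. Those of levels and ratios also leave out the spread between cells, and are too narrow for it. In Taf4IEC, the 10% of cells with most UMIs of the gene held 79.5% of those of Gdf15 and 73.2% of those of Nupr1, in cells of unequal depth. The control library held 39947009 UMIs in 2563 cells (median 16749 per cell) and the Taf4IEC library 24990128 UMIs in 1811 cells (median 2254). Cells with under 2000 UMIs made up 17.3% and 49.1% of the cells but 1.22% and 3.06% of the UMIs, and 2 barcodes occurred in both libraries. Taf4, the targeted gene, did not go down with the label. Its level per 10000 UMIs was 0.0696 in control cells against 0.0944 in cells of the library labelled Taf4IEC (log2 ratio 0.44, 0.18 to 0.70), in counts from the 3′ end that do not tell a recombined transcript from an intact one. Taf4IEC below therefore names a library by its label. Markers of cells outside the epithelium, of which 9 of 13 listed were found, summed to 0.0781 and 0.133 of 10000. Ptprc, Col1a2, Col3a1 and Cdh5 were not among the genes listed in either library, so that they have no measured level. Low-quality RNA (Gm42418, AY036118, Malat1 and Lars2) took 70.3 and 119 of 10000, and its part in the results was not tested.

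Of the 8 genes, 5 hold the letters of the C/EBP-ATF response element (CARE), the composite site that ATF4 and its partners bind, near the start of the gene. The letters TGATGNAA, read on both strands, occur in 3.97% of 32851 RefSeq windows (GRCm38.p6) from 250 bases before to 50 bases after a start. The stretches that hold them are shown 5′ to 3′ on the strand of the gene, with the matched letters in capitals, since this is the sequence through which ATF4 is known to act on several of these genes.
Asns: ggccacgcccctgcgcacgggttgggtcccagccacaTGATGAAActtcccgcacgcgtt
Chac1: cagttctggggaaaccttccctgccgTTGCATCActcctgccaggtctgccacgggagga
Nupr1: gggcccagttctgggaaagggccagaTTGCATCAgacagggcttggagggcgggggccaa
Atf3: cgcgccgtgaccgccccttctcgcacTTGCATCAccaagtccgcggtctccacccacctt
Trib3: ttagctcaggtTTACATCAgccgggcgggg
They lie at chr6:7693210-7693269, minus strand for Asns, chr2:119351023-119351082, plus strand for Chac1, chr7:126625547-126625606, minus strand for Nupr1, chr1:191183410-191183469, minus strand for Atf3 and chr2:152344028-152344057, minus strand for Trib3. The match begins 23 bases before the start in Asns, 110 in Nupr1 and Atf3, and 193 in Chac1, and in Trib3 at base 15 of the transcribed part. The windows of Atf4, Ddit3 and Gdf15 do not hold these letters, which says nothing of sites elsewhere. The cAMP response element TGACGTCA (1.79% of all windows) and the p53 half-site (8.36%) were in none of the 9 windows of the 8 genes.

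Levels are UMIs of a gene per 10000 UMIs of all genes, and ratios are the library labelled Taf4IEC over the control on the log2 scale. Over all cells, 3 of the 8 genes were at least 2-fold lower in Taf4IEC (Nupr1, Trib3 and Ddit3), beside 3.48% of the 10002 genes with at least 200 UMIs. Gdf15 was the 1 gene at least 2-fold higher, beside 5.52% of genes. The median log2 ratio of the 8 genes was -0.92 and that of all genes 0.16, and 96.2% of all genes had a lower ratio than Gdf15. With mitochondrial, ribosomal and low-quality genes left out of the total, which moved the median of all genes by -0.18 to -0.03, the split was 5 lower and 0 higher, and Gdf15 was at 0.99. These are descriptions of 2 libraries.

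**Figure D1:**
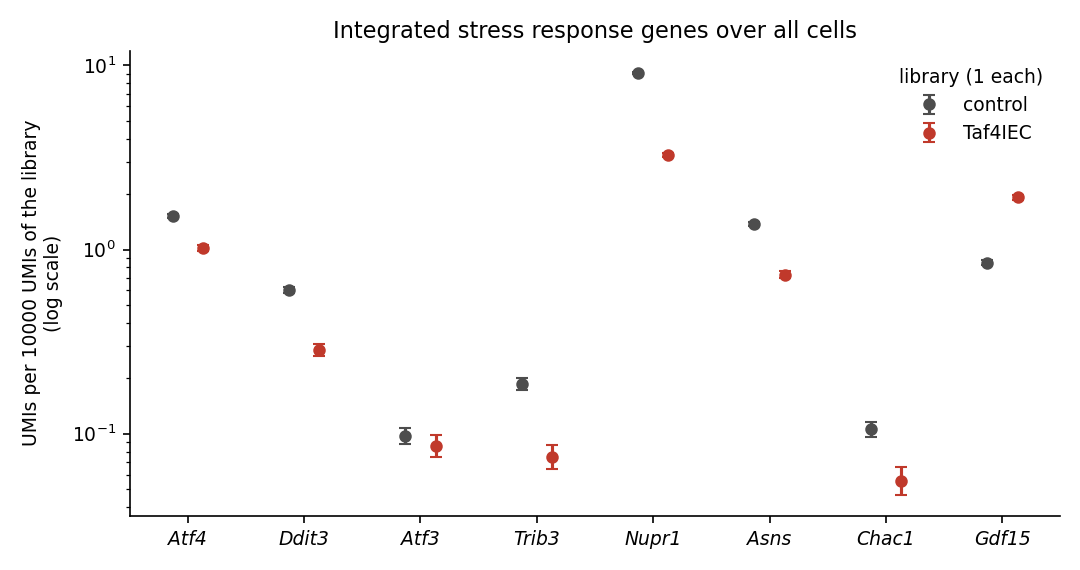
Level of each gene over all cells (vertical axis, UMIs per 10000 on a log scale) in the control and Taf4IEC libraries, with bars for the exact Poisson 95% interval. Gdf15 lies higher in Taf4IEC (1.92 against 0.850), Atf3 has overlapping intervals, and the other 6 genes lie lower. Levels are to be compared within a gene.

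Cell classes are groups of clusters named from marker genes, each library having been clustered alone without the 8 genes and the pathway genes. Stem-like clusters held 1121 control and 431 Taf4IEC cells, enterocyte-like 231 and 173, Paneth/goblet-like 271 and 185, and enteroendocrine-like 265 and 201. A further 675 and 806 cells were left unnamed, and 15 Taf4IEC cells formed a tuft-like cluster. Stem markers took 24.3 and 22.1 of 10000 UMIs in the stem-like cells of control and Taf4IEC, and enterocyte markers 161 and 220 in the enterocyte-like cells, each the highest of the 5 classes in its library. Paneth/goblet markers took 455 and 1467 in the class of that name. They also took 10.5 and 28.3 in stem-like cells, above the stem markers in Taf4IEC, and 38.1 and 164.8 in enteroendocrine-like cells, beside 210.4 and 397 of that class's own markers, and their part in the ratios of these classes was not tested. Control stem-like cells fell into 5 clusters, of which 4 were led by S phase, mitosis or Olfm4 genes and the other, of 96 cells, by Stk39 and Kcnn4. Those of Taf4IEC fell into 3, of which the largest by UMIs was led by Ccnd1, Olfm4 and Lgr5. Paneth/goblet-like cells had medians of 16642 UMIs in the control and 6388 in Taf4IEC. Low-quality RNA was higher in Taf4IEC in each class, from 52.9 and 80.4 of 10000 in stem-like to 139 and 214 in enteroendocrine-like cells.

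Atf4, the transcription factor at the centre of the response (chromosome 15, 80255184 to 80257545 in GRCm38), was at 1.53 (1.49 to 1.57) in the control and 1.02 (0.978 to 1.06) in Taf4IEC, a log2 ratio of -0.59 (-0.66 to -0.52). Since ATF4 is controlled mainly by translation, its mRNA is no measure of the protein. In the control the level was highest in enterocyte-like cells (2.03) and lowest in stem-like cells (1.32), a fold of 1.54. The log2 ratio was -0.97 (-1.13 to -0.81) in enterocyte-like cells, -0.83 in unnamed cells, -0.71 in stem-like cells and -0.47 in Paneth/goblet-like cells. In enteroendocrine-like cells, at 1.58 and 1.48, the levels were not distinguishable (-0.10, -0.31 to 0.11).

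Ddit3, which encodes CHOP, a factor that promotes cell death in lasting stress (chromosome 10, 127290793 to 127296291), was at 0.602 (0.578 to 0.627) in the control and 0.285 (0.264 to 0.307) in Taf4IEC (log2 ratio -1.08, -1.20 to -0.96). Its highest level in both libraries was that of enterocyte-like cells, which was 9.43-fold that of stem-like cells in the control (2.51 and 0.266) and 5.34-fold in Taf4IEC (0.663 and 0.124). The log2 ratio was -1.92 (-2.10 to -1.74) in enterocyte-like cells, -1.37 in unnamed, -1.10 in stem-like, -0.94 in Paneth/goblet-like and -0.67 (-1.33 to -0.03) in enteroendocrine-like cells. All 5 classes thus lay below 0.

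Trib3, a pseudokinase that is induced by CHOP and ATF4 and curbs both (chromosome 2, 152337425 to 152344060), was at 0.187 (0.174 to 0.201) in the control and 0.0748 (0.0645 to 0.0864) in Taf4IEC (-1.32, -1.56 to -1.09). Enterocyte-like cells again held the most, 0.642 in the control and 0.170 in Taf4IEC. In stem-like cells there were 238 UMIs in the control and 18 in Taf4IEC (-2.38, -3.16 to -1.69), and in Paneth/goblet-like cells 45 and 6 (-2.29, -3.81 to -1.06). In enteroendocrine-like cells the counts of 25 and 22 gave -0.14 (-1.03 to 0.75), a ratio not distinguishable from 0 at this depth.

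Atf3, an immediate early and stress-induced factor of the same family as Atf4 (chromosome 1, 191170296 to 191183333), was close in the 2 libraries over all cells, at 0.0976 (0.0882 to 0.108) and 0.0860 (0.0749 to 0.0983), a ratio of -0.18 (-0.43 to 0.06). It was -0.54 with cells weighted equally and -1.59 with cells thinned to 500 UMIs. The classes did not share a direction. Enterocyte-like cells went from 0.336 to 0.174 (-0.94, -1.35 to -0.55) and Paneth/goblet-like cells from 0.0644 to 0.135 (1.06, 0.35 to 1.79), the latter on 30 and 41 UMIs. Those 41 UMIs came from 8 of 185 cells, and the 30 of the control from 25 of 271. With cells thinned to 2000 UMIs, the shares with an Atf3 UMI were 1.90% and 1.85%, so that a few cells carry the higher level and no order is read from it. In stem-like cells the ratio was -0.04 (-0.61 to 0.50), and enteroendocrine-like cells had 11 and 2 UMIs (-2.41, -5.63 to -0.22). Immediate early genes, which cell dissociation also induces, summed to 14.98 and 15.4 of 10000 in Paneth/goblet-like cells and to 10.0 and 9.76 in enterocyte-like cells, and their part in the Atf3 values was not tested.

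Nupr1 encodes a small chromatin-associated protein induced by many stresses (chromosome 7, 126623246 to 126625470). It was at 9.14 (9.04 to 9.23) in the control and 3.26 (3.19 to 3.34) in Taf4IEC, and its log2 ratio of -1.49 (-1.52 to -1.45) was the lowest of the 8 genes. The classes were unequal. Paneth/goblet-like cells, at 11.6 and 8.28, and stem-like cells, at 5.76 and 3.796, had ratios of -0.49 (-0.56 to -0.42) and -0.60 (-0.66 to -0.55), the latter being -1.57 in clusters made without regression. Among stem-like clusters, those led by mitosis genes were at 7.01 in the control and 2.78 in Taf4IEC. Those led by Olfm4 without S phase genes were at 9.37 and 4.48. Clusters led by S phase genes were at 3.40 and 4.73 in the control and 1.88 in Taf4IEC, and the control cluster led by Stk39 was at 5.45. The part of this mix of clusters in the class ratio was not tested. Enterocyte-like cells, with 2771 UMIs in the control and 140 in Taf4IEC, had a ratio of -4.39 (-4.65 to -4.14), which was -2.89 with both libraries clustered together. Their share of cells with a Nupr1 UMI, with each cell thinned to 2000 UMIs, was 41.6% (34.9 to 48.5) and 6.57% (3.05 to 12.1), and before thinning 75.3% and 25.4%, while the thinned shares of Paneth/goblet-like cells were 62.7% and 63.9%.

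The highest Nupr1 level was that of a deep unnamed control cluster of 244 cells, which Nupr1 itself led together with Tmem237, at 29.99 (29.5 to 30.5). The unnamed Taf4IEC cluster of 193 cells that shared Tmem237 and 2610528A11Rik among its 10 leading genes was at 2.72 (2.57 to 2.87), a log2 ratio of -3.46. Both clusters met under 3 markers of any class. Between the same clusters Ddit3 had a ratio of -1.46, Asns -1.63, Trib3 -1.49, Atf3 -1.22 and Gdf15 0.88 (0.71 to 1.06). Nupr1 was left out of the genes used for clustering, and the pairing by 2 shared leading genes is loose.

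Asns, asparagine synthetase and a standard readout of amino acid shortage (chromosome 6, 7675165 to 7693209), was at 1.37 (1.34 to 1.41) in the control and 0.732 (0.699 to 0.767) in Taf4IEC (-0.91, -0.99 to -0.83). The log2 ratio was -1.60 (-1.82 to -1.38) in enterocyte-like cells, -1.60 in unnamed, -0.90 in stem-like and -0.49 in Paneth/goblet-like cells. In enteroendocrine-like cells Asns was at 1.136 (1.01 to 1.27) and 1.43 (1.28 to 1.58), a ratio of 0.33 (0.10 to 0.55). That interval holds the median of all genes in this class, 0.28. The order of the classes for Asns differed between the libraries. Enteroendocrine-like cells were the lowest of the 5 classes in the control and the highest in Taf4IEC, while the control classes lay close together, with a fold of 1.49 between highest and lowest.

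Chac1, an enzyme that degrades glutathione (chromosome 2, 119351242 to 119354326), was at 0.106 (0.0960 to 0.116) in the control and 0.0556 (0.0468 to 0.0657) in Taf4IEC (-0.93, -1.22 to -0.65). The ratio was -0.18 with cells thinned to 500 UMIs and -1.59 with the Taf4IEC classes at the shares of the control. Stem-like cells held 182 UMIs in the control and 3 in Taf4IEC, 0.0787 and 0.0033 of 10000, with a ratio of -4.58 (-6.87 to -3.01). Enterocyte-like cells held 122 and 55 UMIs (-1.23, -1.72 to -0.76), and unnamed cells 66 and 57 (-0.29, -0.83 to 0.24). In unnamed cells it moved to -2.34 at resolution 0.5 and to -3.46 with both libraries clustered together. Over all cells, the 139 UMIs of Taf4IEC came from 49 cells, and the 423 of the control from 248 cells.

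Gdf15 (chromosome 8, 70629393 to 70632470) had 3396 UMIs in the control, 0.850 (0.822 to 0.879) of 10000, and 4799 in Taf4IEC, 1.92 (1.87 to 1.98), a log2 ratio of 1.18 (1.11 to 1.24). Stem-like cells were at 0.926 (0.888 to 0.967) and 3.32 (3.20 to 3.44), a fold of 3.59 and a log2 ratio of 1.84 (1.76 to 1.92). The Taf4IEC stem-like class depended on the clustering, with 79 cells without regression, 33 when markers had to reach 2 times the mean and 0 at resolution 0.5, and the ratio lay between 1.53 and 1.88 wherever the class was found. Unnamed cells were at 0.937 and 1.83 (0.96, 0.81 to 1.12). The 3 differentiated classes lay near 0, with 0.31 (0.04 to 0.59) in Paneth/goblet-like, 0.21 (-0.02 to 0.44) in enterocyte-like and -0.17 (-0.44 to 0.11) in enteroendocrine-like cells. That of enterocyte-like cells was -0.18 in clusters made without regression, and that of Paneth/goblet-like cells 1.401 with both libraries clustered together. In the control, the levels of unnamed, stem-like and enteroendocrine-like cells (0.937, 0.926 and 0.920) had overlapping intervals, as did those of enterocyte-like and Paneth/goblet-like cells (0.640 and 0.537). In Taf4IEC, stem-like cells were the highest, unnamed cells followed, and the other classes (0.819, 0.738 and 0.667) overlapped with their neighbours.

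**Figure D2:**
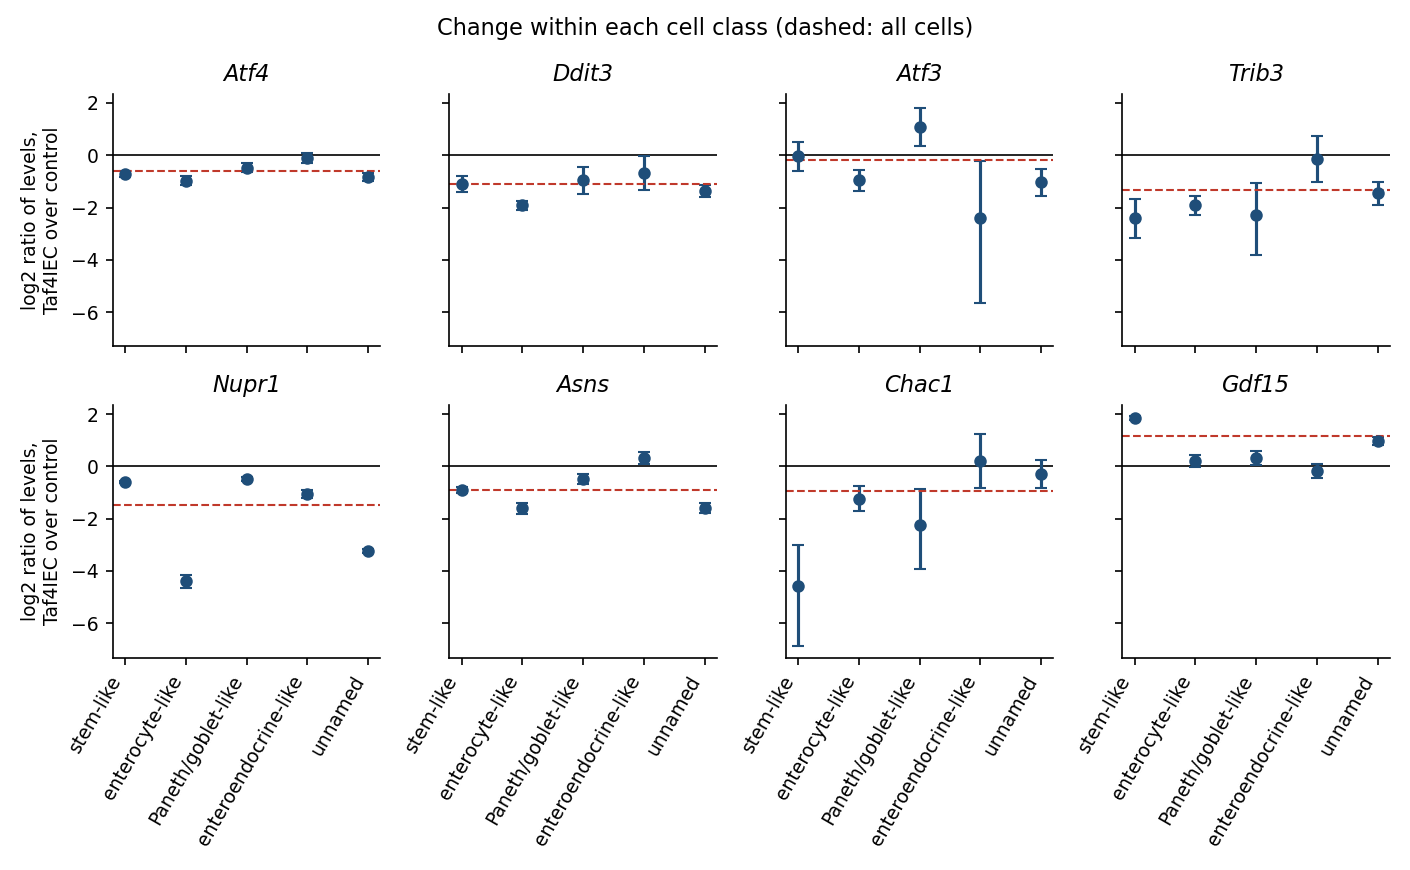
Log2 ratio of the level in Taf4IEC over control (vertical axis) for each gene within 5 cell classes, with exact binomial 95% intervals and a dashed line for the ratio over all cells. Gdf15 lies above 0 in stem-like (1.84) and unnamed cells (0.96), and Nupr1 lies lowest in enterocyte-like cells (-4.39). Asns lies above 0 in enteroendocrine-like cells (0.33), where the median of all genes is 0.28.

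The Gdf15 values were also looked at by cluster. All 5 control stem-like clusters lay between 0.597 and 1.34, and all 3 Taf4IEC stem-like clusters between 2.75 and 3.58, without overlap. Clusters of 1 library are not replicates. The Taf4IEC cluster at 2.75, of 219 cells, had a median of 2386 UMIs per cell, whereas the control stem-like clusters had medians from 16572 to 24496.5. In Paneth/goblet-like and enteroendocrine-like cells of Taf4IEC, the deep clusters were at 0.459 and 0.719 and the shallow ones, with medians of 958 and 1024.5 UMIs per cell, at 2.19 and 2.69. Shallow unnamed clusters of Taf4IEC were at 2.13 and 2.67. These shallow clusters thus lay between 2.13 and 2.69 whatever their markers, near or above the level of the whole library (1.92), and the part of free RNA in their values was not tested.

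**Figure D3:**
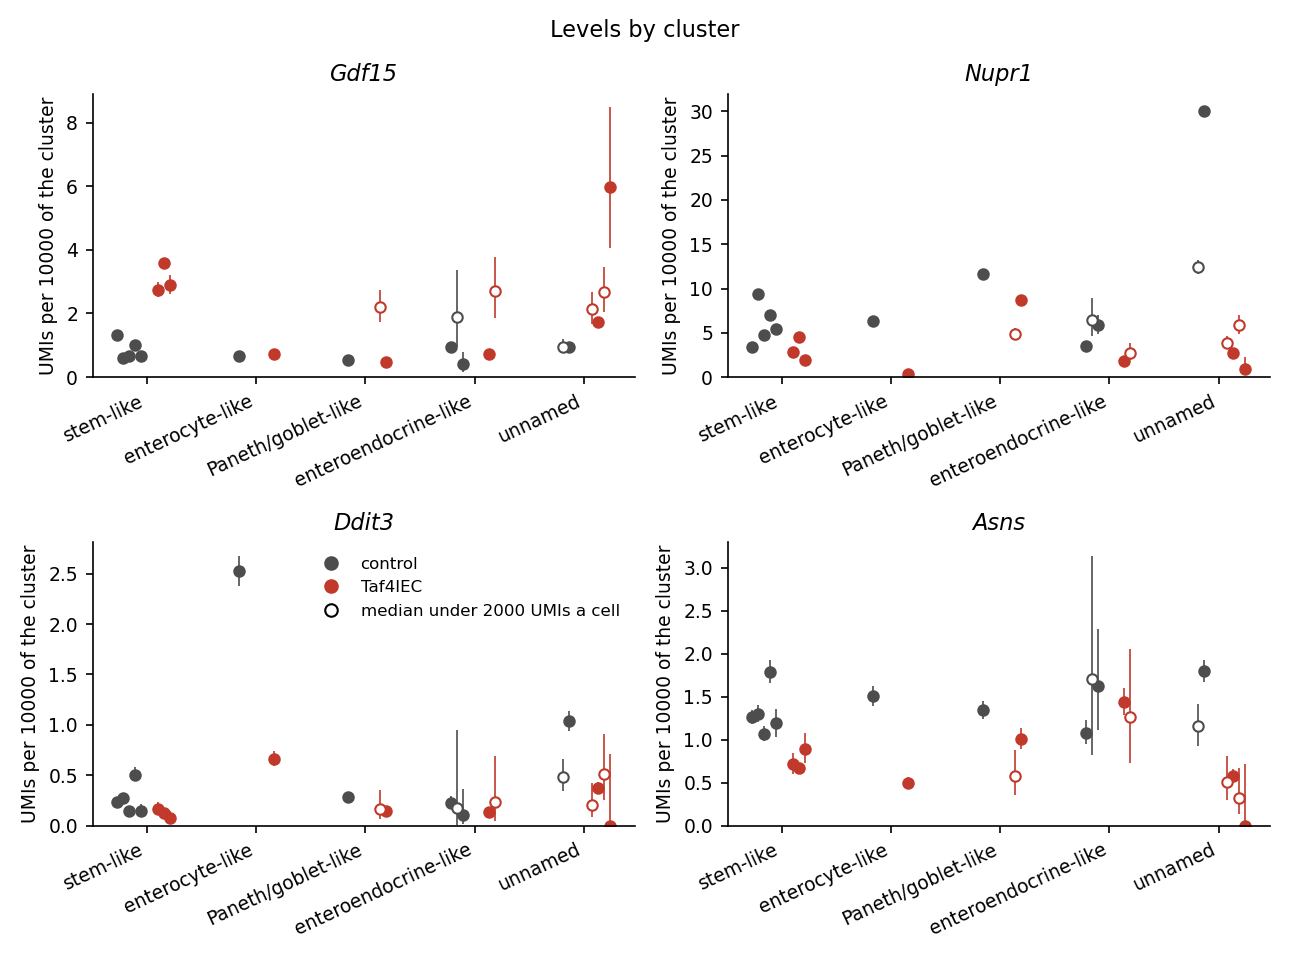
Level of Gdf15, Nupr1, Ddit3 and Asns (vertical axes, UMIs per 10000, starting at 0) in each cluster with at least 50000 UMIs, by class and library, with exact Poisson 95% intervals and open points for clusters with a median under 2000 UMIs per cell. The 3 Taf4IEC stem-like clusters lie above the 5 of the control for Gdf15, and a single unnamed control cluster stands at 29.99 for Nupr1.

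Genes of the p53 response, which includes Gdf15, were measured beside it with a list that leaves Gdf15 out. Over all cells, 19 of 19 p53 targets with at least 200 UMIs had ratios above 0, where 34.7% of all genes lay below 0. Of these targets 11 were at least 2-fold higher, beside 5.52% of all genes, and their median was 1.10. Cdkn1a, the cell cycle inhibitor p21, was at 1.94 and 6.17 (1.67, 1.63 to 1.71). By class, the summed list had log2 ratios of 1.73 in stem-like, 1.35 in unnamed, 1.19 in Paneth/goblet-like, 0.63 in enteroendocrine-like and 0.51 in enterocyte-like cells. Those of Gdf15, in the same order of classes, were 1.84, 0.96, 0.31, -0.17 and 0.21. Whether either response bears on Gdf15 here was not tested.

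Read as a group, the 8 genes had a median ratio of -1.42 in enterocyte-like cells, beside 0.03 for all genes, and 5 of the 8 were at least 2-fold lower and 0 higher, where 2.38% and 2.66% of 7526 genes with at least 50 UMIs were. In stem-like cells the median was -0.81 beside 0.19, with 3 genes at least 2-fold lower and Gdf15 higher, beside 3.93% and 5.77% of genes. Unnamed cells gave a median of -1.19 beside 0.14, with 5 lower and 0 higher, beside 3.58% and 6.78%. That median was -1.89 at resolution 0.5 and -2.01 with both libraries clustered together, so that no order is read between unnamed and enterocyte-like cells. In Paneth/goblet-like cells, where 7 of the genes had 50 UMIs, the median was -0.49 beside 0.04, with Trib3 lower and Atf3 higher, beside 4.05% and 3.73%. In enteroendocrine-like cells 5 genes had 50 UMIs and a median of -0.17 beside 0.28, with Nupr1 lower (-1.06) and 0 higher, beside 1.68% and 5.71%. The median thus lay nearest 0 in enteroendocrine-like cells, over fewer genes, and the median of all genes was also highest there (0.28).

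Because stem-like cells held 57.9% of the UMIs in the control and 36.4% in Taf4IEC, the levels of the Taf4IEC classes were also weighted by the shares of the control. All 8 genes kept the sign of their ratio. Gdf15 then had a log2 ratio of 1.48, Trib3 -1.84, Chac1 -1.59, Ddit3 -1.46, Nupr1 -1.31, Asns -0.90, Atf4 -0.68 and Atf3 -0.43.

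The depth of the cells was treated in bins of under 2000, 2000 to 10000 and at least 10000 UMIs. Gdf15 had log2 ratios of 1.20, 1.86 and 1.12 in the 3 bins, and Nupr1 -1.63, -1.64 and -1.48. Atf4, Ddit3, Trib3 and Asns were below 0 in all 3 bins. Atf3 and Chac1 were above 0 in the middle bin, on 13 and 6 UMIs in Taf4IEC, with intervals that include 0. After each cell was thinned to 2000 UMIs, which left out 444 control and 890 Taf4IEC cells, 12.6% (11.2 to 14.1) of control and 22.7% (20.0 to 25.5) of Taf4IEC cells had a Gdf15 UMI. In stem-like cells these shares were 12.4% and 28.7%, and in enterocyte-like cells 9.81% and 10.2%. The other 7 genes had lower shares in Taf4IEC, from 57.0% and 35.5% for Nupr1 and 26.0% and 19.9% for Atf4 to 1.84% and 1.74% for Atf3, and the intervals of Atf3, Chac1 and Trib3 overlapped. Without thinning, the Gdf15 shares were 42.8% and 38.9%, in libraries whose medians were 16749 and 2254 UMIs per cell. None of the classes is known to lack these genes, so that no background share from free RNA could be set beside them.

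The wider pathway was described with a list of 64 further genes, of which 63 were found and 59 had at least 200 UMIs. Of these, 40 had ratios below 0, 6 were at least 2-fold lower and 1 at least 2-fold higher, and the median was -0.38. Over all genes, 34.7% had ratios below 0, 3.48% were at least 2-fold lower and 5.52% at least 2-fold higher, with a median of 0.16. Amino acid synthesis genes were below 0 in 10 of 11 cases, with a median of -0.81, and Psph, the last step of serine synthesis, was at 0.431 and 0.120 (-1.84, -2.02 to -1.66). Phgdh, the entry step of serine synthesis, was at 2.06 and 0.862 (-1.26), while Got1 was at 0.08 (-0.03 to 0.19). Of genes of tRNA charging 12 of 13 were below 0 (median -0.50), from Yars at -0.88 to Wars at 0.25. Of the amino acid transporters 6 of 7 were below 0 (median -0.56), from Slc7a5, the large neutral amino acid carrier, at -0.82 to Slc7a11, the cystine carrier, at 0.11.

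The kinases, subunits and phosphatase subunits around eIF2, which act upstream of ATF4, were above 0 in 11 of 14 cases, and their median of 0.12 lay near that of all genes (0.16). Eif2ak3, the kinase PERK, was at 0.85 (0.54 to 1.16). Ppp1r15a, the phosphatase subunit GADD34 that ATF4 and CHOP induce, was at -0.89 (-1.13 to -0.64). Among the partners, Atf5 was at 0.584 and 0.184 (-1.66, -1.81 to -1.52) and Cebpb at -0.16. The stress and growth effectors were split, with 5 above and 6 below 0 (median -0.03). Stc2, a secreted glycoprotein, was at -1.62, and Tnfrsf10b, a death receptor, at 1.58 (1.31 to 1.86). Tnfrsf10b is known to be induced by both CHOP and p53, as is Sesn2, at 0.995 (0.79 to 1.20), by ATF4 and p53.

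**Figure D4:**
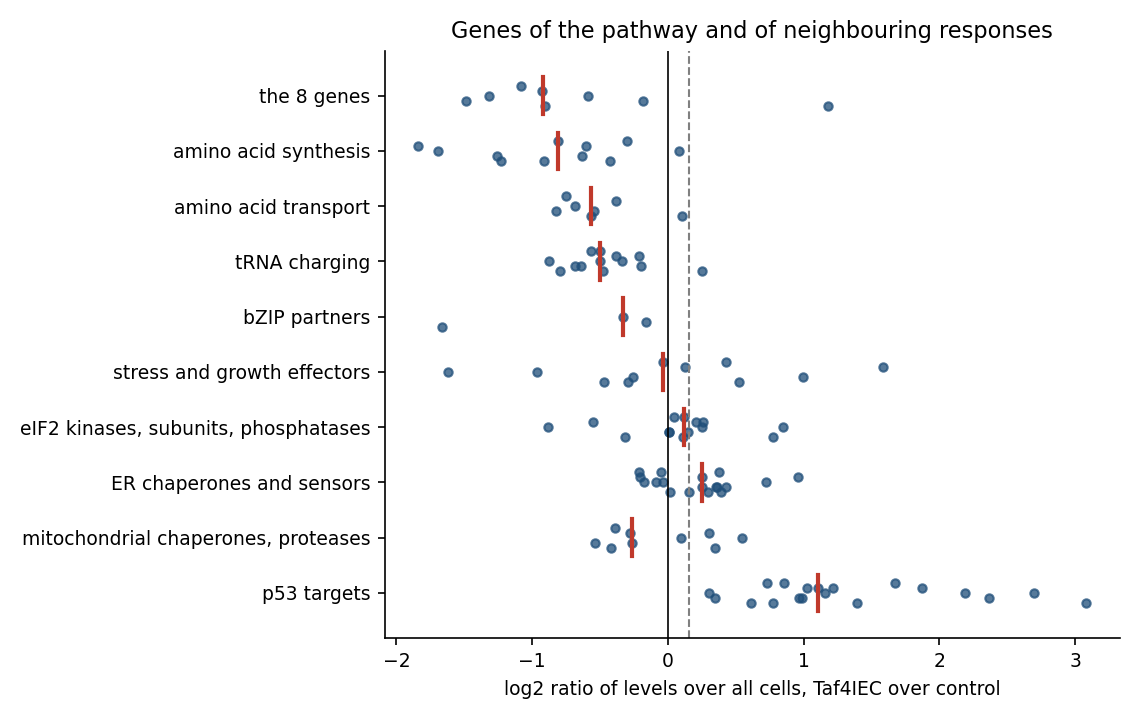
Log2 ratio over all cells (horizontal axis) for each gene with at least 200 UMIs, by gene group, with a red bar at the median of each group and a dashed line at the median of all genes (0.16). Amino acid synthesis (median -0.81), transport (-0.56) and tRNA charging (-0.50) lie left of 0, and p53 targets (1.10) lie right of it.

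Neighbouring stress responses were listed for comparison. Endoplasmic reticulum sensors and chaperones had a median of 0.25, from Hsp90b1 at -0.22 to Ern2, a sensor of secretory epithelium, at 0.96, with 0 of 18 at least 2-fold off. Mitochondrial chaperones and proteases had a median of -0.27, from Lonp1 at -0.54 to Oma1, the protease that relays mitochondrial stress to the kinase HRI, at 0.55. Immediate early genes had a median of 0.02, from Fosb at -2.06 to Ier3 at 0.94.

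Within classes, the pathway list had 44 of 52 genes below 0 in enterocyte-like cells (median -0.65), 46 of 56 in unnamed (-0.57), 41 of 61 in stem-like (-0.47), 43 of 58 in Paneth/goblet-like (-0.29) and 25 of 54 in enteroendocrine-like cells (0.04). Over all genes with at least 50 UMIs, the shares below 0 in the same order of classes were 46.3%, 39.5%, 32.0%, 46.6% and 25.6%. In enteroendocrine-like cells 9 of 13 genes of tRNA charging were above 0, with a median of 0.15 beside 0.28 for all genes, and in enterocyte-like cells 0 of 13, with a median of -0.63 beside 0.03. Phgdh was at 0.738 and 0.124 in enteroendocrine-like cells (-2.58, -3.17 to -2.02). Atf5 was lower in stem-like cells (-2.24, -2.55 to -1.94) and had a ratio of -0.18 (-0.71 to 0.34) in enteroendocrine-like cells.

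Likeness was described by Spearman's rho of levels over the 25 clusters with at least 50000 UMIs, which share 2 libraries and differ in depth, and no p is given. The genes most like Asns were Sord (0.83), St3gal1 (0.79) and Psph (0.78), and those like Atf4 included Mthfd2 (0.78) and Ppp1r15a (0.68). For Ddit3 they were Selenbp1 (0.80), Scd2 and Ovol1, for Atf3 Smad7 (0.81), Klf5 and Osbpl6, and for Trib3 Pef1 (0.81), Phyh and Fau. For Nupr1 they were Prss8 (0.80), Gm11361 and Rpl23, for Chac1 Ddrgk1 (0.77), Nol3 and Gdap10, and for Gdf15 Cdk10 (0.85), Mmd and Acad8. Over the 25 clusters, Gdf15 had a rho below 0 with each of the other 7 genes, from -0.56 with Chac1 to -0.03 with Atf3. With the summed p53 list it had 0.59. These values also hold the difference between the libraries. Within the 12 control clusters alone, the rho of Gdf15 with the other 7 genes ran from -0.38 (Chac1) to 0.13 (Ddit3). Within the 13 Taf4IEC clusters alone, it ran from -0.66 (Trib3) to 0.20 (Atf3). The rho of Gdf15 with the p53 list was 0.26 and 0.29 within the control and the Taf4IEC clusters.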

How the data were processed

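The authors demultiplexed reads with bcl2fastq 2.17.1.14 and aligned them to mm10 with Cell Ranger 3.1, as the submitters' notes name, and their filter asked for 200 to 6000 genes per cell and less than 15% mitochondrial reads, bounds that hold for every cell in the files. What the authors deposited are raw counts (UMIs), not normalized. Counts were analysed with Python 3.11.15, scipy 1.17.1, R 4.3.3 and Seurat 5.3.0. Levels are summed UMIs over the summed total, times 10000, and 3′ counts were not scaled by gene length. Each library was clustered alone (2000 variable genes without the 8 genes and the pathway genes, 20 principal components, resolution 0.9, UMI count and mitochondrial percent regressed). A cluster was named when at least 3 markers of 1 class had 10 UMIs and 1.5 times the mean of the 2 libraries, unless its 10 leading genes went against the name. Scrublet marked 10 control and 0 Taf4IEC cells as doublets, too few to count as a working caller, and they were kept. Intervals of ratios were tested on simulated Poisson counts, the model they assume. Such counts hold no spread between cells, so that the test cannot tell how the intervals hold for these cells.

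The 8 genes and the lists were chosen with earlier results of these data known. Named were the 8 genes, the highest and lowest ratio of each gene group, the 3 genes most like each of the 8, class markers, Taf4 and the low-quality genes. Phgdh, Mthfd2, Sesn2, Cdkn1a, leading genes and values within classes were named after their values were seen. 1 gene that this rule names is not reported here. Alternatives are given in the closing section.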

Additional observations from a re-analysis of the deposited data

Results flagged for a closer look

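For 2 of the 8 genes, the counting intervals of the ratio lay above 0 in 1 cell class and below 0 in others. The log2 ratio of Atf3 was 1.06 in Paneth/goblet-like cells, and it was -0.945 in the enterocyte-like class and -1.02 in the unnamed cells, but the Taf4IEC value of the first of these classes rests on 41 UMIs of 8 cells, 20 of them in 1 cell, and no direction is read from it. The log2 ratio of Asns was 0.33 in enteroendocrine-like cells, and in the stem-like class it was -0.90, in the enterocyte-like class -1.60, in the Paneth/goblet-like class -0.49 and among unnamed cells -1.60. The median of all genes was 0.28 in enteroendocrine-like cells, inside the interval of Asns there (0.10 to 0.55). In the other classes it lay between 0.03 and 0.19. With 1 library per condition the difference between classes was not tested. The ratio of Asns in enteroendocrine-like cells lay between 0.09 and 0.41 in 10 alternatives.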

How the results depend on the processing

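No paired analysis was possible because each condition had 1 library, and no replicate could be left out. No ratio of the 8 genes with a 2-fold call changed sign. Over all cells the median of the 8 genes lay between -1.10 and -0.91 in 7 alternatives, and Gdf15 between 0.99 and 1.54. With mitochondrial, ribosomal and low-quality genes left out of the total, which shifted all genes by -0.18, the median of the 8 genes was -1.10, with 5 at least 2-fold lower and 0 higher (Gdf15 0.99), and the pathway list had 11 lower genes and a median of -0.56. Median-of-ratios scaling, a shift of -0.16, gave 5 lower genes of the 8, and 10 lower pathway genes with a median of -0.53. A fold of 1.5 gave 6 lower genes. Cells thinned to 500 UMIs gave a pathway median of -0.23, and cells weighted equally 3 higher pathway genes. Taf4IEC classes at the shares of the control, an alternative chosen after seeing the data, gave a median of -1.10. Within classes, the median in unnamed cells was -1.89 at resolution 0.5 and -2.01 with both libraries clustered together, that in Paneth/goblet-like cells -0.76 at resolution 1.4, -0.76 with the 8 genes among the variable genes and -0.74 with low-quality genes out of the total, and that in stem-like cells -0.98 without regression and -1.07 when markers had to reach 2 times the mean. Resolution 0.5 named no stem-like Taf4IEC cluster, so that it gave no value there. Without thinning, 0 genes had a higher share of cells in Taf4IEC. Of the values of single genes, 311 stayed within their counting interval and 113 moved out of it, and no value whose interval lay to one side of 0 changed sign except the Gdf15 difference in shares of cells, 10.1 percentage points and -3.83 without thinning. The cause was not tested in any of these. Atf3 in stem-like cells kept its sign in 5 of 9 alternatives, and Gdf15 in enterocyte-like and enteroendocrine-like cells in 9 of 10. Nupr1 in enterocyte-like cells ranged from -4.63 to -2.89, Nupr1 in stem-like cells from -1.57 to -0.45, Gdf15 in stem-like cells from 1.53 to 1.88 and Gdf15 in Paneth/goblet-like cells from 0.06 to 1.401. Genes with few counts, Atf3, Chac1 and Trib3, are limited by depth in the smaller classes.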

Other observations

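A tuft-like cluster of 15 cells was named in the Taf4IEC library and none in the control, so that it entered no comparison. It held 29 UMIs of Gdf15 (1.36 of 10000), 14 of Nupr1 (0.655), 8 of Ddit3 (0.374) and 0 of Atf3 and Chac1. Another Taf4IEC cluster of 15 cells, unnamed and led by histone and low-quality genes, had the highest Gdf15 level of any cluster, 5.99 (4.07 to 8.50) on 31 UMIs. Fgf21, another secreted hormone of this response, had 5 UMIs in the control and 2 in Taf4IEC, too few to compare.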
